A study of Mus musculus with 6 samples.

Results

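Immediate early genes were examined in whole-kidney RNA of mice that overexpress adiponectin in the kidney tubule. The 10 genes are *Fos*, *Fosb*, *Jun*, *Junb*, *Jund*, *Egr1*, *Atf3*, *Ier2*, *Dusp1* and *Klf6*. They were taken by symbol from a table of 54532 genes, and the list was chosen with earlier results of these data known. Each has 1 row in the table, and all 10 passed the filter on low counts that left 16017 genes for testing.

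Sequencing covered 6 libraries of male mice on the C57BL/6 background, 3 per group, and each library was made from a pool of 3 mice. Control mice carry KsprtTA, in which the Ksp-cadherin promoter drives the doxycycline-dependent activator rtTA in tubular epithelium, from proximal tubule through collecting duct. KSPAPN mice carry KsprtTA and TRE-Adiponectin, so adiponectin is made in those cells under doxycycline. Both groups had chow with doxycycline at 600 mg/kg for 4 days, and no ages are given in the labels or methods used. The sample labels call the Control genotype WT, and their text on extraction speaks of liver while the tissue is given as kidney. The 8 kidney epithelial markers were all detected, at summed counts per library scaled to equal depth (CPM) of 11779 to 14785, and 7 hepatocyte markers summed to 67.0 to 202 CPM. Reads on genes numbered 17183358 to 20871173 per library. *Adipoq*, the transgene, had 2, 0 and 2 reads in Control and 24629, 17483 and 26811 in KSPAPN, and every library matched its label.

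Immediate early genes are transcribed within minutes of a stimulus such as a growth factor, stretch, low oxygen or cell injury, from promoters that already carry bound transcription factors and without new protein synthesis. Their transcripts decay fast, so the level in a tissue sample also reflects the time just before RNA was preserved, and excision and handling of a kidney are themselves stimuli. Most of them encode transcription factors. *Fos*, *Fosb*, *Jun*, *Junb* and *Jund* encode subunits of AP-1, a dimer that a Jun protein forms with itself or with a Fos protein. *Egr1* and *Klf6* encode zinc finger factors, *Atf3* a stress-induced factor that pairs with Jun proteins, *Ier2* a regulator of transcription and *Dusp1* a phosphatase that switches off the MAP kinases that induce the rest.

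Promoter sequence is shown for *Fos*, *Fosb* and *Junb*, AP-1 subunits whose windows hold a cyclic AMP response element (CRE) half-site, a letter pattern recognised by CREB and ATF proteins. The stretches run 5′ to 3′ on the strand of the gene from 150 to 31 bases before the start site, at chr12:85473740-85473859 (plus strand) for *Fos*, chr7:19310076-19310195 (minus strand) for *Fosb* and chr8:84978779-84978898 (minus strand) for *Junb*. They are from RefSeq, build GRCm38.p6, and lie outside annotated exons. Capitals mark TGACG.
Fos: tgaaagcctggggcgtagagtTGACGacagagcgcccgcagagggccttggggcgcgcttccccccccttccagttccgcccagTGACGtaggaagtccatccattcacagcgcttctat
Fosb: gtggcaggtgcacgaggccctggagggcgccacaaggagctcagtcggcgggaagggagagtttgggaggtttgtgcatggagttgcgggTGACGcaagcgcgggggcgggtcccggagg
Junb: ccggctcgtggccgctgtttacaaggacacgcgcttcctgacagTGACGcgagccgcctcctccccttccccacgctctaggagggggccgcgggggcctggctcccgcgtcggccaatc

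Windows from 250 bases before to 50 after the start were searched on both strands for 8 of the 10 genes, all but *Egr1* and *Ier2*. TGACG was present in 5 of the 8 (*Fos*, *Fosb*, *Junb*, *Atf3* and *Dusp1*), against 20.8% of all 32851 windows and 29.9% of the 14253 windows with a GC content of at least 55%. The palindromic CRE, TGACGTCA, which contains TGACG, was present in *Dusp1* alone of the 8, against 1.79% of all windows. The AP-1 element TGACTCA was in 0 of the 8 (5.20% of all windows), and so was the CArG box, the binding pattern of serum response factor (1.63% of all windows). The RefSeq start site of *Jund* lies 1210 bases from the nearest *Jund* start in GENCODE M21, which gave the gene coordinates printed here. A match is a description of letters and not of binding. Sequence outside these windows was not searched, so an absence holds for the windows alone and not for the genes.

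Levels in FPKM (fragments scaled by transcript length and library size, as deposited) placed *Jund* highest of the 10 in every library, between 22.8 and 50.8. *Dusp1* came next, between 12.2 and 15.1, with no overlap with *Jund* above or with the genes below. *Jun*, *Junb*, *Ier2* and *Klf6* lay between 5.61 and 10.7, and their ranges overlapped, so no order can be given among them. *Egr1* lay below these 4 in every library and above *Atf3* in every library. *Fos* was below *Atf3* in all libraries but KSPAPN replicate 1, and their ranges overlapped. *Fosb* was the lowest in every library, at most at 0.251 FPKM. The AP-1 subunits thus spanned the whole range of the list, from *Jund* at the top to *Fosb* at the bottom.

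**Figure D1:**
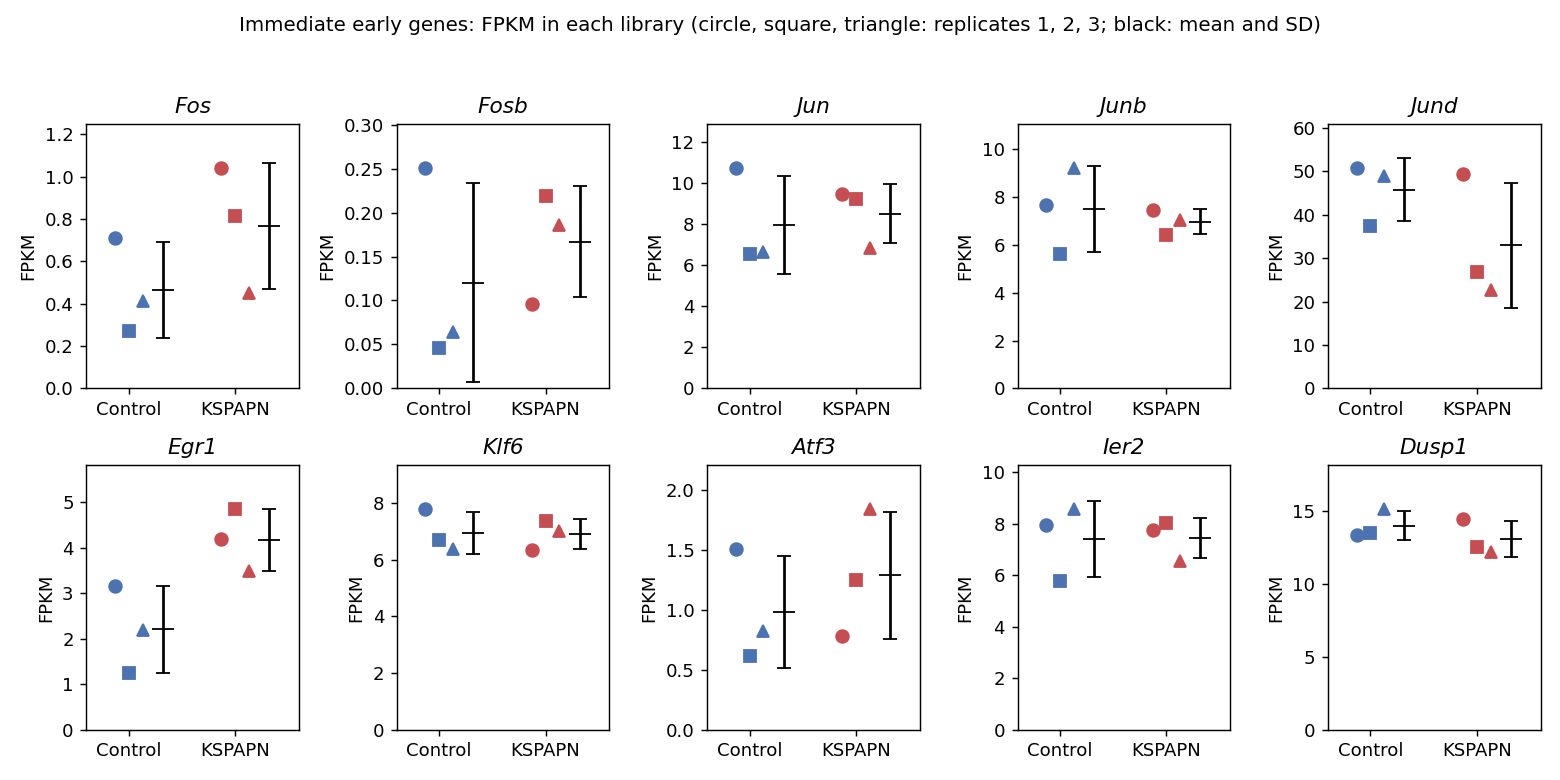
Level of each gene in FPKM, on an axis from 0, in the 3 Control (blue) and 3 KSPAPN (red) libraries; circles, squares and triangles are replicates 1, 2 and 3 and the black bars the mean ± SD. The 3 KSPAPN libraries lie above the 3 Control libraries for Egr1, and the groups overlap for the other 9 genes.

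The question for the comparison of KSPAPN with Control was whether any of these genes differed beyond the spread between pools. At an adjusted p under 0.05 in edgeR's quasi-likelihood test (Benjamini-Hochberg over all genes tested), 0 of the 10 genes passed, against 2.65% of all genes tested. At an unadjusted p under 0.05 the count was 1 of 10, *Egr1*, against 18.7% of all genes. In DESeq2, which gave *Fosb* no adjusted p, 1 of the other 9 passed, again *Egr1*, against 6.33%. CPM did not overlap between the groups for 1 of 10, *Egr1*, against 24.5% of all genes. On the log2 scale, 6 of the 10 fold changes were above 0 and 4 below, and 3 (*Egr1*, *Fos* and *Jund*) were larger than their standard error. The median was 0.055 over the 10 genes and 0.012 over all genes tested. In whole-kidney RNA, fewer cells of a type and less RNA per cell cannot be told apart, and the p-values measure the spread between pools.

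**Figure D2:**
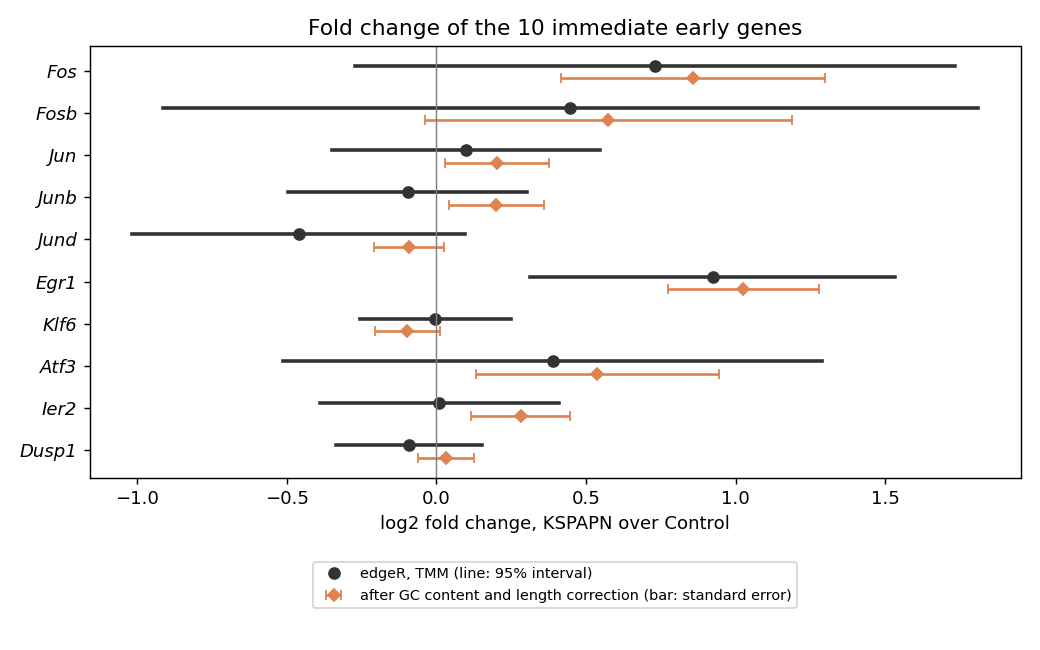
Log2 fold change of KSPAPN over Control for the 10 genes, as fitted by edgeR (circles, with 95% intervals) and after a correction for GC content and transcript length (diamonds, with standard errors). The interval for Egr1, from 0.31 to 1.53, lies above 0, and the other 9 intervals include 0.

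*Egr1* (ENSMUSG00000038418, chr18:34859823-34864984) is the member with the clearest separation between the groups. Its protein is a zinc finger factor that binds GC-rich promoters of growth and stress genes. Control libraries had 3.16, 1.25 and 2.20 FPKM, and KSPAPN libraries had 4.18, 4.84 and 3.49. All 3 KSPAPN libraries lay above all 3 Control libraries, and the gap between the highest Control and the lowest KSPAPN library was small beside the spread within Control. The means were 2.20 ± 0.959 (SD, n = 3) and 4.17 ± 0.679 FPKM (SD, n = 3). In edgeR the fold was 1.90, with a 95% interval from 1.24 to 2.89, a log2 fold change of 0.92 (SE 0.275) and an adjusted p of 0.107. The two-sided exact permutation test over the libraries gave p = 0.1, the smallest that 3 against 3 allows. In DESeq2 the log2 fold change was 0.93 at an adjusted p of 0.00944, so the call depends on the tool. Without Control replicate 2, the lowest library, the edgeR value was 0.64, and without Control replicate 1 it was 1.28. Over all alternatives the adjusted p ran from 1.04e-05 to 0.234.

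*Klf6* (ENSMUSG00000000078, chr13:5861482-5870394), the other zinc finger factor, is a regulator of growth arrest and injury genes. Control libraries had 7.78, 6.70 and 6.36 FPKM and KSPAPN libraries 6.35, 7.38 and 7.01. The ranges coincided almost entirely. The log2 fold change was -0.0030 (SE 0.11), with a 95% interval from -0.26 to 0.25.

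*Fos* (ENSMUSG00000021250, chr12:85473890-85477273) had 0.711, 0.270 and 0.411 FPKM in Control and 1.04, 0.814 and 0.451 in KSPAPN. These rested on 31, 11 and 17 reads in Control and 57, 35 and 22 in KSPAPN. KSPAPN replicates 1 and 2 were above all Control libraries, while KSPAPN replicate 3 fell below Control replicate 1. The lowest and highest counts had exact Poisson 95% intervals of 5.49 to 19.7 and 43.2 to 73.9 reads, intervals that hold counting error alone. The fold change on the log2 scale was 0.73 (SE 0.45), with an interval from -0.27 to 1.73 and an adjusted p of 0.419 in edgeR. The value of *Egr1*, 0.92, lies within that interval.

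*Fosb* (ENSMUSG00000003545, chr7:19302696-19310051) was close to the filter, at 29, 5 and 7 reads in Control and 14, 25 and 24 in KSPAPN. Control replicate 1 was the highest of all 6 libraries and Control replicate 2 the lowest. Their exact Poisson intervals were 19.4 to 41.6 and 1.62 to 11.7 reads and did not overlap, so these libraries of a single group differed beyond counting error. On the log2 scale the fold change was 0.45 (SE 0.61), and it was 1.57, 0.073 and 0.15 without Control replicates 1, 2 and 3 in turn and 0.75, 0.22 and 0.37 without KSPAPN replicates 1, 2 and 3. Its size thus depended on which libraries were used, and it stayed above 0.

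*Jun* (ENSMUSG00000052684, chr4:95049034-95052222) encodes c-Jun, the usual partner of Fos. It had 10.7, 6.55 and 6.64 FPKM in Control and 9.48, 9.20 and 6.84 in KSPAPN. Control replicate 1 stood above all the KSPAPN libraries and the other Control libraries below them. Its fold change was 0.099 on the log2 scale (SE 0.20). *Junb* (ENSMUSG00000052837, chr8:84974484-84978718), whose protein often restrains c-Jun, had 7.67, 5.61 and 9.22 FPKM in Control and 7.48, 6.42 and 7.05 in KSPAPN. The KSPAPN libraries all lay inside the Control range. The log2 fold change was -0.096 (SE 0.18), and 0.20 after the correction for GC content and length, so its sign depends on that correction.

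*Jund* (ENSMUSG00000071076, chr8:70698949-70700616) encodes the Jun protein that resting cells hold at a high level, and it is the member with the largest number of reads. Control libraries had 50.8, 37.5 and 49 FPKM and KSPAPN libraries 49.4, 26.7 and 22.8. KSPAPN replicate 1 was the second highest of the 6, and KSPAPN replicates 2 and 3 were below all the others. The means were 45.7 ± 7.22 and 33.0 ± 14.4 FPKM (SD, n = 3 each). The log2 fold change was -0.46 (SE 0.25), with an interval from -1.02 to 0.095 and an adjusted p of 0.359 in edgeR. Without KSPAPN replicate 1 it was -0.87 with an adjusted p of 0.010, and without KSPAPN replicate 3 it was -0.255. Over all alternatives the adjusted p ran from 0.00220 to 0.732.

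The longest *Jund* transcript has a single exon and a GC content of 67.1%, the highest of the list and far above the median of 49.5% over all genes tested. The 387 genes with a GC content of at least 60% and a mean log2 CPM above 3 had a median log2 fold change of -0.21. Their median deviation from the mean of each gene over the 6 libraries was 0.22, -0.012 and 0.14 in Control and 0.15, -0.26 and -0.22 in KSPAPN. *Jund* deviated by 0.43, -0.0076 and 0.39 in Control and by 0.42, -0.50 and -0.72 in KSPAPN. *Jund* and the GC-rich genes were thus high in the same 3 libraries and low in KSPAPN replicates 2 and 3. After the correction for GC content and length the log2 fold change of *Jund* was -0.091 (SE 0.12). The GC-rich genes also differed between the groups, and the part of GC content in the *Jund* difference was not tested.

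**Figure D3:**
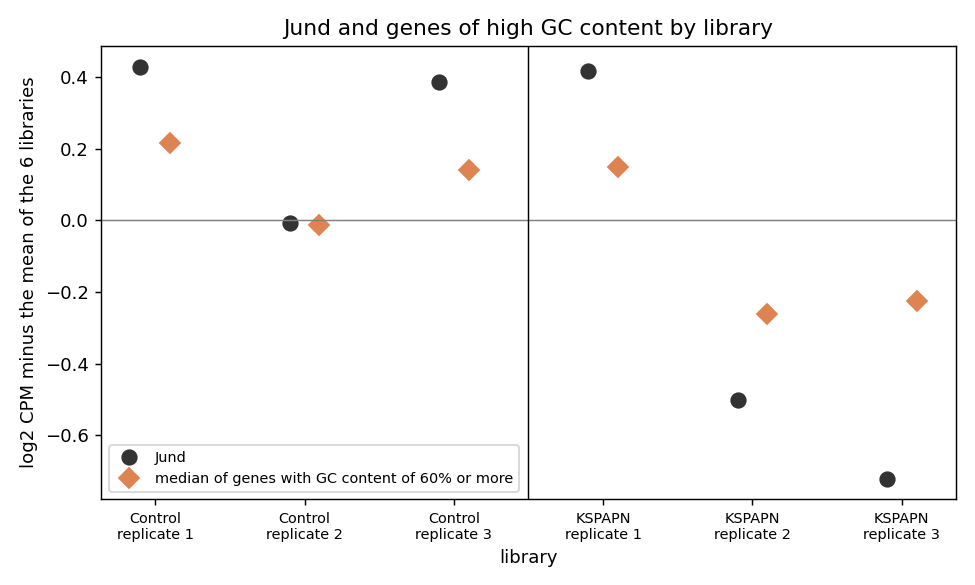
Deviation of log2 CPM from the mean of the 6 libraries, by library, for Jund (circles) and for the median of the 387 genes with a GC content of 60% or more (diamonds). Both lie above 0 in Control replicates 1 and 3 and KSPAPN replicate 1 and below 0 in KSPAPN replicates 2 and 3.

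The correction moved the other GC-rich members in the same upward direction. *Ier2* (GC content 60.9%) went from 0.0099 to 0.28 and *Junb* (62.6%) from -0.096 to 0.20, while *Klf6* (42.4%), the only member under 50%, went from -0.0030 to -0.096. With it, 8 of the 10 log2 fold changes were above 0 and their median was 0.24, against 0.043 over all genes. No member passed after the correction, and the smallest adjusted p in edgeR was 0.0653, for *Egr1* at 1.03.

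Summed over the 5 AP-1 subunits, FPKM was 70.1, 49.9 and 65.4 in Control and 67.5, 43.4 and 37.3 in KSPAPN. *Jund* made up 72.4%, 75% and 75% of this sum in Control and 73.2%, 61.6% and 61.1% in KSPAPN. The share of *Fos* and *Fosb* together was 1.37%, 0.632% and 0.727% in Control and 1.68%, 2.38% and 1.71% in KSPAPN. The Fos share did not overlap between the groups and the *Jund* share did. The Fos share moves with the *Jund* level in its denominator, and in KSPAPN replicates 2 and 3 *Jund* was low. No test was made of these shares.

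*Atf3* (ENSMUSG00000026628, chr1:191170296-191218039) had 1.5, 0.616 and 0.819 FPKM in Control and 0.777, 1.24 and 1.84 in KSPAPN. KSPAPN replicate 3 was highest and Control replicate 2 lowest, and KSPAPN replicate 1 lay below 2 of the Control libraries. The log2 fold change was 0.39 (SE 0.41), and without KSPAPN replicate 3 it was 0.042. *Ier2* (ENSMUSG00000053560, chr8:84661331-84662852) had 7.94, 5.76 and 8.56 FPKM in Control and 7.76, 8.02 and 6.56 in KSPAPN. Its KSPAPN libraries lay inside the Control range, and the log2 fold change was 0.0099 (SE 0.18).

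*Dusp1* (ENSMUSG00000024190, chr17:26505590-26562128), the brake on MAP kinase signalling, had 13.3, 13.5 and 15.1 FPKM in Control and 14.5, 12.5 and 12.2 in KSPAPN. It varied little between libraries. Its log2 fold change was -0.091 (SE 0.11), with an interval from -0.33 to 0.15. *Junb* overlaps *Prdx2*, with 19337 reads over the 6 libraries, *Dusp1* overlaps *Ergic1*, with 10235, and *Jun* overlaps *Junos*, with 121. These are overlaps of whole gene spans, and exons were not compared. Each of these partners lies on the other strand, and the strand setting of the counting is not given in the sources used. Whether reads of a partner were counted for these genes was not tested.

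Library by library, the members did not move as a block with genotype. The summed CPM of the 10 genes was 246, 184 and 226 in Control and 242, 199 and 177 in KSPAPN. *Jund* was the largest part of each sum, at 86.9, 64.2 and 84.3 CPM in Control and 86.1, 45.5 and 39.1 in KSPAPN. Control replicate 2 was the lowest of all 6 libraries for 7 members, and the lowest Control library for 8 of 10, against 34.7% of all genes tested. Control replicate 1 was the highest Control library for 7 of 10, against 33.6% of all genes. Between these replicates, 9 of 10 members were higher in replicate 1, with a median ratio of 1.5-fold, while 50% of all genes were. The exception was *Dusp1*.

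Among the KSPAPN libraries, replicate 3 was lowest for 6 of 10 members, against 29.8% of all genes tested. In replicate 2, 8 of 10 were higher than in replicate 3, with a median log2 ratio of 0.22, against 50.1% of all genes. *Atf3*, highest in KSPAPN replicate 3, and *Junb* went the other way. Among 35 other immediate early genes, Control replicate 2 was the lowest Control library for 13 and Control replicate 3 for 16. Control replicate 2 was thus lowest in its group for 80% of the members and 37.1% of the other list, and the difference between the lists was not tested.

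**Figure D4:**
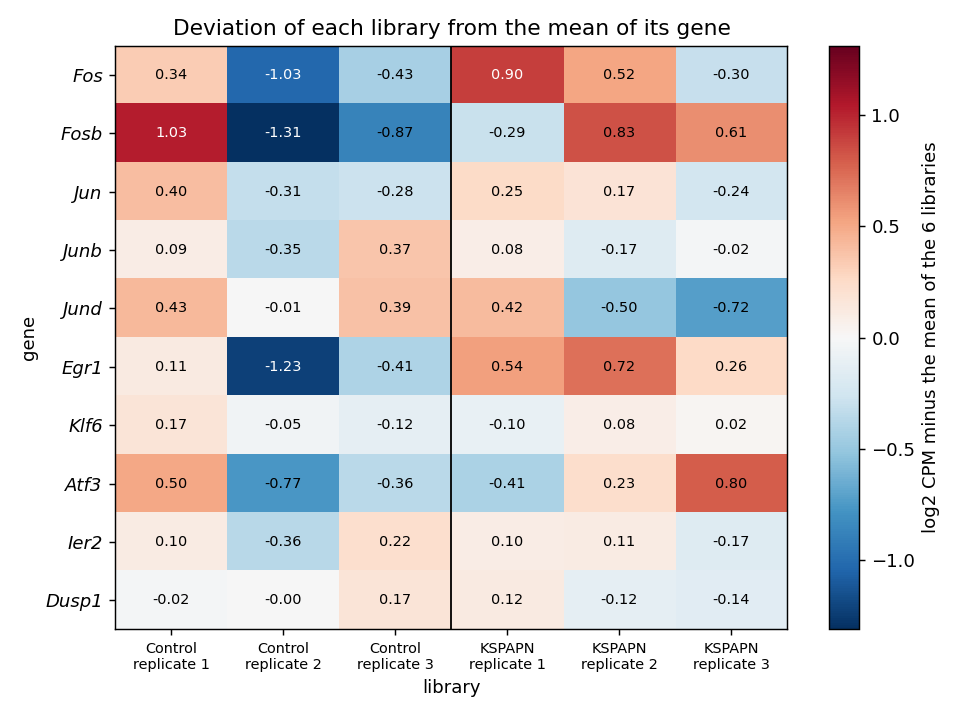
Log2 CPM of each gene (rows) in each library (columns) minus the mean of the gene over the 6 libraries, with red above and blue below the mean; the black line parts Control from KSPAPN. Control replicate 2 is below the mean for all 10 genes, most for Fosb (-1.31), Egr1 (-1.23) and Fos (-1.03).

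The spread between libraries of a group was wide for most members. The ratio of the highest to the lowest CPM within Control was 5.42 for *Fosb*, 2.64 for *Fos*, 2.54 for *Egr1* and 2.44 for *Atf3*, and between 1.14 and 1.65 for the other 6. Within KSPAPN it was 2.34 for *Fos*, 2.33 for *Atf3*, 2.22 for *Fosb* and 2.20 for *Jund*, and between 1.14 and 1.41 for the rest. *Egr1* varied 2.54-fold in Control and 1.38-fold in KSPAPN, and *Jund* 1.35-fold in Control and 2.20-fold in KSPAPN. The pooled SD of log2 CPM within groups had a median of 0.40 over the 10 genes and 0.20 over all genes tested, and 8 of 10 lay above the latter value. The exceptions were *Dusp1* (0.127) and *Klf6* (0.124).

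Low counts widen the spread, so each gene was also set against genes of like abundance. The dispersion that edgeR estimated for the gene was above the trend at its abundance for 7 of 10, against 31.7% of all genes tested. It was 3.88 times the trend for *Jund*, 2.27 times for *Egr1*, 2.09 times for *Fosb* and 1.82 times for *Jun*. It was below the trend for *Ier2* (0.919), *Dusp1* (0.792) and *Klf6* (0.747). *Jund* and *Egr1*, with more reads than the Fos genes, were the members with the highest ratios.

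**Figure D5:**
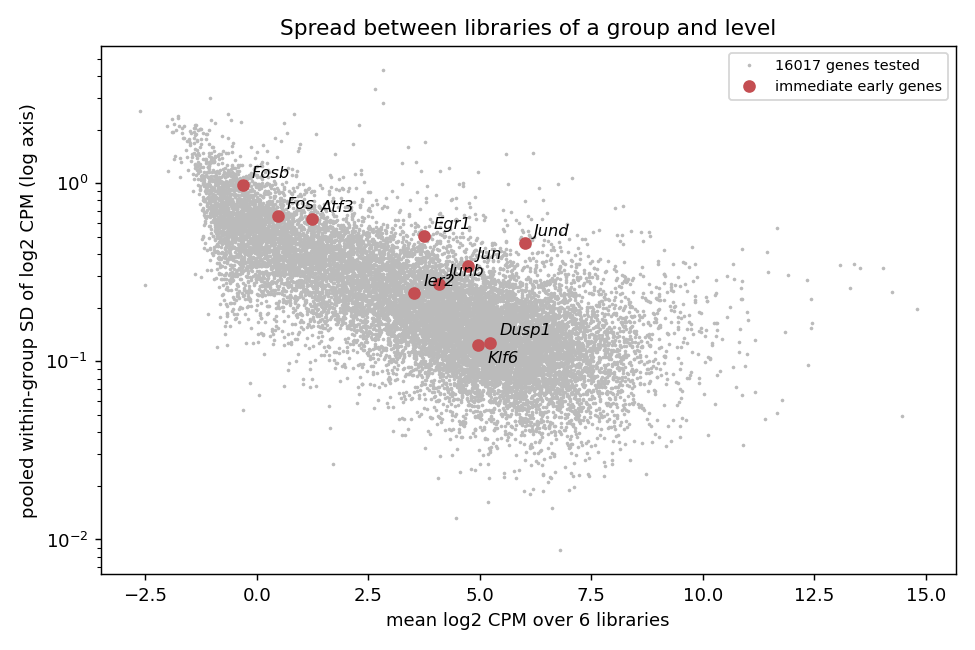
Pooled within-group SD of log2 CPM (log axis) against the mean log2 CPM over the 6 libraries, for the 16017 genes tested (grey) and the 10 immediate early genes (red). Jund and Egr1 lie in the upper part of the grey cloud at their level, and Dusp1 and Klf6 lie within it at 0.127 and 0.124.

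Of 40 other immediate early genes, 35 were tested, of which 19 had a log2 fold change above 0 and 16 below. In edgeR 0 of the 35 passed at an adjusted p under 0.05, against 2.65% of all genes tested. At an unadjusted p under 0.05 there were 2 higher and 3 lower of the 35, against 18.7% of all genes in either direction. These 5 were *Sik1*, a kinase that restrains CREB coactivators (-0.49, adjusted p 0.145), *Errfi1*, a feedback inhibitor of the EGF receptor (-0.75, adjusted p 0.149), *Btg2*, an antiproliferative gene (0.32, adjusted p 0.157), *Klf10*, a TGF-beta-induced repressor (0.40, adjusted p 0.238), and *Gadd45g*, a stress gene (-0.60, adjusted p 0.247). The median of the 35 was 0.061. The 5 that were not tested are *Egr2*, *Egr3*, *Egr4*, *Nr4a3* and *Dusp2*, named after their values were seen, and *Egr4* had no read in any library. *Fosl2*, likewise named after its values were seen, encodes a further Fos protein and lay between 1.96 and 2.55 FPKM, above *Fos* in every library.

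The kinases and promoter-binding factors that induce these genes were all tested, and 0 of 18 passed the adjusted threshold, with a median log2 fold change of 0.118. Among those with the smallest p were *Map2k2* (-0.29), of the ERK cascade, *Mapk14* (-0.18), the p38 kinase, *Rps6ka1* (0.53), an ERK-activated kinase, and *Srf* (-0.45), the factor that binds the CArG box. Of 11 genes for proteins that pair with Jun or Fos proteins or bind the same elements, 10 were tested. Of these, 1 passed, against 2.65% of all genes tested. *Batf3*, a bZIP partner of Jun proteins known from dendritic cells, fell, with a log2 fold change of -1.97 (SE 0.43) and an adjusted p of 0.043. It had 1.77, 2.07 and 1.11 CPM in Control and 0.359, 0.559 and 0.348 in KSPAPN, at a low level and without overlap. The next by p were *Mafg* (-0.25), *Maf* (0.26), *Atf7* (0.29) and *Atf2* (0.14). The summed CPM of 8 leukocyte markers, of which 4 were tested and 0 passed, was 91.3 to 97.6 in Control and 78.7 to 92.3 in KSPAPN. *Csf1r*, named after its values were seen, made up most of these sums, at 77.2 to 83.1 CPM in Control and 66.0 to 74.5 in KSPAPN. Its log2 fold change was -0.19 (adjusted p 0.282 in edgeR). The part of leukocytes in the *Batf3* difference was not tested.

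Heat shock genes, which also respond to handling and to stress, were tested for all 9 listed. Of these, 1 passed, against 2.65% of all genes tested. It was *Hspe1*, the mitochondrial chaperonin cofactor, which fell by 0.48 on the log2 scale (SE 0.10, adjusted p 0.039 in edgeR). *Hspa1a*, a stress-inducible Hsp70 whose reads may be shared with its near-identical copy, was at -0.19 (SE 0.27). *Hspa8* (0.20), *Hspd1* (-0.19) and *Hsp90aa1* (0.14) did not pass either, and the median of the list was -0.044. *Hspa1b* (-0.15, SE 0.28) and *Dnajb1* (-0.044, SE 0.22), named after their values were seen, did not pass. The summed CPM of the list was 3335 to 3799 in Control and 3387 to 4333 in KSPAPN, and the groups overlapped. *Hspa8* was the largest part of these sums, at 1824 to 2112 CPM in Control and 1927 to 2598 in KSPAPN, so they say little about the other genes.

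Cell type markers moved between libraries as well. The 6 podocyte and glomerular markers summed to 217 to 340 CPM in Control and 302 to 427 in KSPAPN, all 6 above 0 and 0 of 6 past the adjusted threshold. For the 8 proximal tubule markers the sums were 10125 to 12057 and 8950 to 9641 CPM, without overlap. Their log2 fold changes were below 0 for 7, and 2 of 8 passed the adjusted threshold, both lower, against 2.65% of all genes tested. The CPM of single genes did not overlap for 24.5% of all genes. *Slc34a1*, named after its values were seen, was the largest part of these sums. It had 5416 to 6566 CPM in Control and 4682 to 5790 in KSPAPN, and the groups overlapped. Endothelial markers, 0 of 6 past it, summed to 222 to 276 and 218 to 278 CPM, and smooth muscle and fibroblast markers, 0 of 7, to 131 to 232 and 158 to 263 CPM. Within Control, replicate 2 had the lowest sum for the glomerular, the endothelial and the smooth muscle and fibroblast lists. The same held for the adipocyte list and for the list of the thick ascending limb and distal nephron. It had the highest sum for the leukocyte and hepatocyte lists. For the kidney epithelial, proximal tubule, erythroid and tubular injury lists it had the middle sum. Erythroid markers, 0 of 5, summed to 89.2 to 162 and 110 to 218 CPM, and tubular injury markers, 5 listed and 0 of 4 tested, to 465 to 579 and 478 to 633 CPM. All 4 tested injury markers had a log2 fold change above 0, with a median of 0.30. *Spp1*, named after its values were seen, made up most of the injury sum. It had 454 to 568 CPM in Control and 460 to 623 in KSPAPN. No marker named in these lists was at 0 in all libraries. The part of cell composition in the values of the immediate early genes was not tested.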

How the data were processed

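RNA-seq was made from 6 kidney libraries, and the members and all gene lists were chosen with earlier results of these data known. Polyadenylated RNA was selected with oligo(dT). The authors deposited raw read counts per gene, without normalization, and FPKM, scaled by gene length and library size. The submitters' processing notes name STAR 2.5, TopHat, HTSeq 0.6.1, DESeq2 and edgeR without role or order, and the build, annotation and strand setting are not given in the sources used. Of 54532 identifiers, 54495 matched GENCODE M21 (GRCm38), which gave symbols and coordinates, and 37 did not.

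Counts were fitted for all genes with edgeR 4.0.16 in R 4.3.3, with TMM factors, filterByExpr (at least 10 reads in enough libraries and 15 in total), the two-sided quasi-likelihood test and Benjamini-Hochberg adjustment over 16017 genes. The common dispersion was 0.0225. CPM use TMM factors. Log2 deviations use a prior count of 0.5. Alternatives were DESeq2 1.42.0, RLE factors, total counts only, no filter, limma 3.58.1 on log2(FPKM + 1) and log2(FPKM + 0.1), a block for the replicate number, leaving out 1 library at a time, and a correction that removed from each library a trend against GC content and length of the longest transcript (splines with 5 degrees of freedom). *Cyr61*, *Ctgf*, *Mkl1* and *Mkl2* were matched as *Ccn1*, *Ccn2*, *Mrtfa* and *Mrtfb*. Named genes are the 10 members, genes of the lists of other immediate early genes, inducers, AP-1 partners and heat shock genes that passed and otherwise those among the 5 with the smallest p in each, the 5 genes outside the lists with a mean CPM of at least 5 and the highest correlation with the mean profile of the members, and *Adipoq*. One gene that this rule names is not reported here. Reads carry no molecular identifiers. The fits were tested on simulated data. Python 3.11.15, pandas 2.3.3 and matplotlib 3.10.9 were used for tables and plots.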

Additional observations from a re-analysis of the deposited data

How the results depend on the processing

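Counts of immediate early genes past the adjusted threshold stayed at 0 in each direction under RLE factors, total counts only, limma on FPKM, the replicate block and the GC content and length correction. The exceptions were 1 higher gene (*Egr1*) in DESeq2 and, without the filter on low counts, 1 higher (*Egr1*, adjusted p 1.04e-05) and 1 lower (*Jund*, -0.46, adjusted p 0.00220). Of the other immediate early genes, 4 of 39 were lower without the filter, 2 of 35 with the replicate block and 1 of 35 with the block and the GC correction. Over all genes without the filter, 1038 of 29418 were lower and 301 higher. With the block 705 of 16017 were lower, and 495 of 16004 with the block and the GC correction. In DESeq2 6.33% of all genes passed in either direction. Leaving out 1 library gave 0 higher and 0 to 1 lower members (*Jund* at -0.87, adjusted p 0.010, without KSPAPN replicate 1), 0 to 1 lower other immediate early genes, and 39 to 733 calls over all genes, against 424.

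Directions turned for *Klf6* with total counts only (0.063, where the median of all genes is 0.081) and for *Junb* (0.20, and 0.21 with the block) and *Dusp1* (0.034, and 0.035 with the block) under the GC correction. With 1 library left out the log2 fold change ran from -0.024 to 0.37 for *Jun*, from -0.27 to 0.081 for *Junb*, from -0.14 to 0.13 for *Ier2*, from -0.059 to 0.084 for *Klf6*, from 0.45 to 1.18 for *Fos* and from 0.042 to 0.84 for *Atf3*. The cause was not tested.

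The replicate numbers were not taken to pair the libraries. The ground was the correlation between same-numbered libraries of log2 CPM minus the mean of the gene in its group, over all genes tested. It was 0.0514, 0.137 and 0.167, although every library correlated best with its own number. The replicate block gave 929 calls over all genes, *Egr1* 0.98 (adjusted p 0.073) and *Jund* -0.53 (adjusted p 0.118) in edgeR. DESeq2 gave 924 calls, no filter 1339, total counts only 266, and limma 128 and 119. Pools of 3 mice, 3 against 3, and few reads limit *Fos*, *Fosb* and *Atf3* most.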

Other observations

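Outside the lists, the 5 genes whose log2 CPM followed the mean profile of the 10 members most closely over the 6 libraries were *Ddit3* (r = 0.983), *Edc4* (0.980), *Cacnb1* (0.974), *Nos1ap* (0.961) and *Arhgef10* (0.961), chosen as the highest of all genes with a mean CPM of at least 5. *Ddit3*, which encodes the stress factor CHOP, had 15.7, 10.7 and 13.3 CPM in Control and 13.6, 14.0 and 12.7 in KSPAPN. *Nos1ap* had 7.64, 2.96 and 6.80 CPM in Control and 7.18, 6.93 and 4.97 in KSPAPN. All 5 were lowest in Control replicate 2, as is the mean profile they were chosen to follow, so the choice fixed this. Their log2 fold changes lay between 0.023 and 0.14. Among the members, r with that profile, to which each contributes, ran from 0.848 for *Fos*, 0.835 for *Jun* and 0.829 for *Ier2* down to 0.328 for *Jund* and 0.10 for *Dusp1*. These correlations are descriptions over 6 libraries, and within a library all genes share its depth and normalization factor.

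Of the nuclear-retained RNAs, *Neat1* rose in KSPAPN, the only one of the pair to pass (0.53, SE 0.11, adjusted p 0.031 in edgeR), and *Malat1* was at 0.19 (SE 0.19). Adipocyte markers, 2 of 6 tested, summed to 0.947 to 2.60 CPM in Control and 1.84 to 3.28 in KSPAPN, beside the *Adipoq* reads of the transgene. Among 4 of 7 hepatocyte markers tested, 1 log2 fold change was above 0 (*Alb*, 0.55, SE 0.68) and 3 were below. Of these 4, 1 passed, *Ttr*, which fell (-1.17, SE 0.25, adjusted p 0.039 in edgeR). *Cps1*, not tested, had 0, 0 and 0 CPM in Control and 0.0449, 0.782 and 1.54 in KSPAPN. *Serpina3k*, also not tested, had 0, 0.178 and 0.176 CPM in Control and 0, 1.29 and 1.69 in KSPAPN. *Alb* had 6.15, 5.92 and 2.76 CPM in Control and 0.673, 10.7 and 10.6 in KSPAPN. *Apoh* (-0.81, SE 0.55) went the other way, with 5.10, 10.3 and 2.46 CPM in Control and 3.81, 5.25 and 1.14 in KSPAPN. *Apoa2* was at -0.12 (SE 0.29). The 8 markers of the thick ascending limb and distal nephron summed to 4861 to 5364 CPM in Control and 4934 to 6188 in KSPAPN. Their log2 fold changes were above 0 for 4 and below 0 for 4, with a median of 0.027. At an unadjusted p under 0.05 in edgeR, 1 was higher and 2 were lower. Past the adjusted threshold was 1, *Slc12a1*, which rose (0.52, SE 0.11, adjusted p 0.044 in edgeR). *Neat1*, *Alb*, *Ttr*, *Cps1*, *Serpina3k*, *Apoh*, *Apoa2* and *Slc12a1* were named after their values were seen.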
